A study of Mus musculus with 48 samples.

Results

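At weaning, the mouse ileum and duodenum were compared in 6 of the 48 samples of a series on the developing small intestine: 3 pieces of ileum and 3 of duodenum taken at week 3, chosen by their region and age labels alone. All mice were C57Bl/6J from the Jackson colony, of both sexes, with no treatment; by the labels they lived in germ-free housing, and whether they carried microbes is not settled there. Pups stayed with their mother until day 21 and then received chow, so week 3 falls at the change of diet. Each sample was a whole-thickness piece, 2 cm long, from just after the pylorus (duodenum) or just before the junction with the caecum (ileum), with RNA from all cell types mixed. The groups at week 2 and week 4, again 3 samples per region, served to ask whether the regional difference at week 3 was the same before and after.

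The small intestine divides its work along its length. The duodenum receives acid, bile and pancreatic juice and is the main site of iron and calcium uptake, while the ileum recovers bile acids and absorbs cobalamin. At weaning the epithelium replaces a programme suited to milk by one suited to solid food, with sucrase and arginase 2 switched on and the lysosomal uptake of milk proteins in the distal bowel switched off.

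The deposited counts per sample summed to 31240661 to 59811501 in the duodenum at week 3 and to 18843625 to 25057519 in the ileum. Mitochondrial transcripts made up 17.9% to 23.7% of the counts in the duodenum and 14.6% to 16.9% in the ileum, so the regions did not overlap in this share. Levels are given as CPM, the usual depth-scaled counts, with library sizes adjusted by TMM (trimmed mean of M-values). Differences are log2 values, ileum minus duodenum, with their standard error (SE), from edgeR's quasi-likelihood test, and a gene is called at a Benjamini-Hochberg adjusted p under 0.05 over all genes tested. Xist and Ddx3y put number 1 of both regions with females and numbers 2 and 3 of both regions with males, so sex was balanced between the regions. The labelled region held in the marker genes below, but the muscle expected of a whole-thickness piece was thin in the RNA: Myh11, the smooth muscle myosin heavy chain, had 2.73, 2.92 and 1.81 CPM in the duodenum and 15.5, 19.4 and 12.0 CPM in the ileum.

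Of 19285 genes tested, 3301 (17.1%) were called, 1700 (8.82%) with more in the ileum and 1601 (8.3%) with more in the duodenum. Counts of called list members below are to be read beside these shares. The median log2 difference over all genes was 0.06. Among called genes that differed by over 2-fold, 905 (4.69%) favoured the ileum and 469 (2.43%) the duodenum, 7.12% in all. The share of calls on the ileum side, 51.5%, depended on scaling: it was 60.2% with upper quartile factors and 37.0% with mitochondrial genes left out before scaling. Small differences can therefore take either sign, and the genes described below are mostly those with large ones. The number called without a single sample ran from 1588 (ileum number 3) to 3531 (ileum number 1), and was 1700 without duodenum number 2, 1774 without duodenum number 3, 2091 without duodenum number 1 and 2154 without ileum number 2. Number 1 was the only female of each region, so a fit without it left males alone in that region. Sex was then not balanced between the regions, here and in the list counts below.

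**Figure D1:**
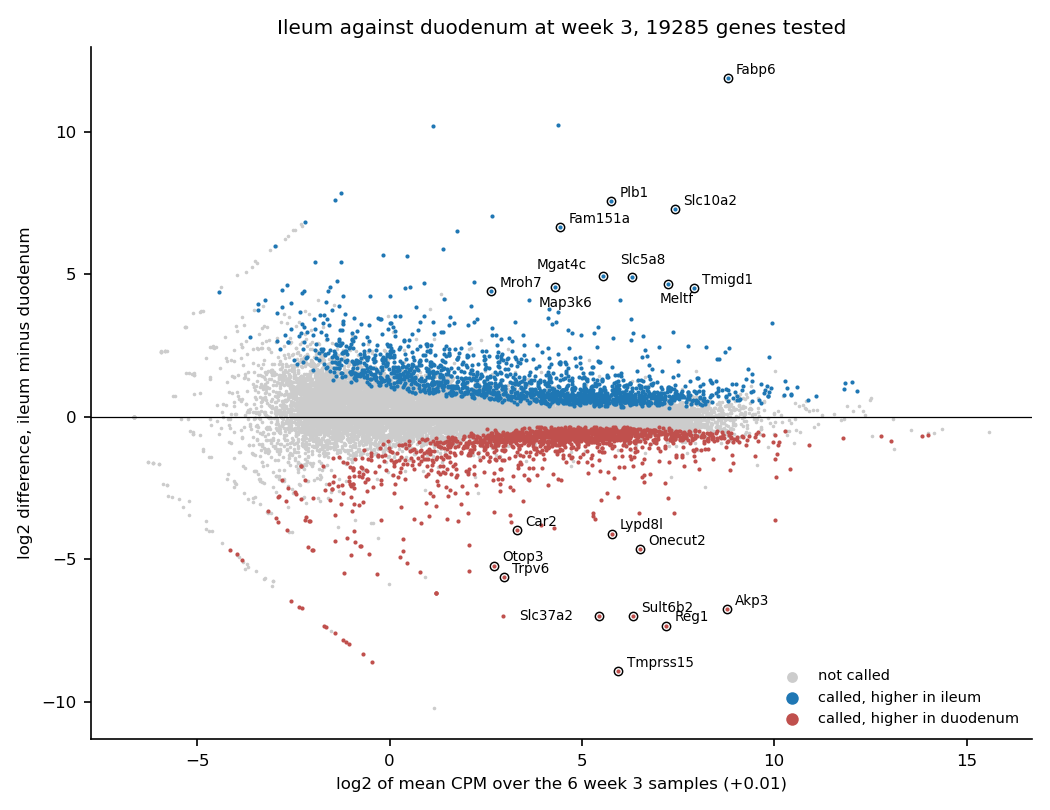
Each point is a gene at week 3, with log2 of its mean CPM over the 6 samples (plus 0.01) on the x axis and its log2 difference, ileum minus duodenum, on the y axis. Blue and red points are called genes and grey points are not called; the 20 circled genes are the 10 with the largest difference in each direction among called genes without overlap between the regions and whose mean log2 CPM was 1 or more, from Fabp6 at 11.86 to Tmprss15 at -8.92.

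Genes of bile acid recovery included the largest difference of the comparison, that of Fabp6. Of the 11 genes of bile acid uptake and signalling that were tested (12 listed), 6 were called, all higher in the ileum, against 8.82% of all genes, and the list's median difference was 0.85. Fabp6, the bile acid binding protein of the ileal enterocyte, had 0.101, 0.470 and 0.223 CPM in the duodenum and 790, 987 and 877 CPM in the ileum. Slc10a2, the sodium-dependent transporter that takes bile acids up from the lumen, had 2.6, 2.05 and 1.93 CPM in the duodenum and 375, 367 and 280 CPM in the ileum. The differences were 11.86 (SE 1.55, adjusted p = 0.000775) for Fabp6 and 7.27 (SE 0.72, adjusted p = 5.07e-05) for Slc10a2, and the lowest ileum sample lay far above the highest duodenum sample for both. Because these are whole pieces, fewer cells of a type and less RNA per cell cannot be told apart.

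The export step followed in the same direction at a smaller size. Slc51a, a subunit of the basolateral bile acid exporter, had 194, 134 and 120 CPM in the duodenum and 662, 616 and 546 CPM in the ileum, a difference of 2.02 (SE 0.23). Its partner subunit Slc51b differed by 1.82 (SE 0.18, adjusted p = 2.18e-05), with 41.8 to 56.4 CPM against 154 to 182 CPM. Nr1h4, the bile acid receptor FXR, was present in both regions, at 55.0, 44.0 and 34.6 CPM in the duodenum and 104, 73.9 and 63.0 CPM in the ileum. Its difference of 0.85 (SE 0.27, adjusted p = 0.0378) was lost with any of 4 samples left out, duodenum number 2 or 3 or ileum number 1 or 2, with an adjusted p of up to 0.14.

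Fgf15, the hormone by which the ileum signals bile acid load to the liver, was at the limit of detection in the duodenum. Its counts there were 3, 0 and 1, against 835, 987 and 965 in the ileum, a ratio of 1316 with an exact 95% interval of 513 to 4834 that covers counting error only. In CPM the ileum samples had 32.0, 44.9 and 47.2. The fitted difference was 10.23 (SE 1.09, adjusted p = 9.66e-05).

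The sequences before the RefSeq start sites of Fabp6, Slc10a2 and Tmprss15 (enteropeptidase, the gene furthest on the duodenal side) are shown because they are among the genes furthest apart between the regions. They are from build GRCm38.p6, on the minus strand of chr11:43601563-43601812, chr8:5105352-5105537 and chr16:79091098-79091347, written 5′ to 3′. Fabp6 and Tmprss15 have the 250 bases before the start, and Slc10a2 has 186, since GENCODE places the rest in an exon. Capitals mark matches, on either strand, to 4 patterns. The longest was a loose form of the inverted repeat that FXR binds, AGGTNA followed after 1 base by its reverse complement. TTTATG is the core of a caudal-type (CDX) site. TATAAA is the core of the box near many start sites. AGATAA is a core bound by Gata factors.
Fabp6: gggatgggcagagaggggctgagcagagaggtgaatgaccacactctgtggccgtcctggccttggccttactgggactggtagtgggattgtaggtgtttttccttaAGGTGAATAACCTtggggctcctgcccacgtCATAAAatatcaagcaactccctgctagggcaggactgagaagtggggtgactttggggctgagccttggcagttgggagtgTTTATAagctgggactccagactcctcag
Slc10a2: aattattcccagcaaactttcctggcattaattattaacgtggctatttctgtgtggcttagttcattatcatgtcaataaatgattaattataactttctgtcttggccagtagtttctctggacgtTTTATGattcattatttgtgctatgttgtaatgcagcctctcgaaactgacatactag
Tmprss15: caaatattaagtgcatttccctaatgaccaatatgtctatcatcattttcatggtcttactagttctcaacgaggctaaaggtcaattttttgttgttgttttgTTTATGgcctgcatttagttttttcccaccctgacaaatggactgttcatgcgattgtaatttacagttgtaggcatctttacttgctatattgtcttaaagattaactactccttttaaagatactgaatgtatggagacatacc
The Fabp6 window holds AGGTGAATAACCT at 142 to 130 bases before the start site, a pattern found in 6 of 32851 RefSeq promoter windows of 250 bases (0.0183%). TTTATG occurs in all 3 windows shown, the ileal and the duodenal alike, and in 10.8% of all windows, while TATAAA occurs in 12.4% of all windows and AGATAA in 9.99%. No matches overlap. A match describes letters and says nothing of whether a factor binds there.

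Next to Fabp6 and Slc10a2, 8 further genes made up the 10 with the largest differences on the ileal side among called genes without overlap whose mean log2 CPM was 1 or more; Fgf15 and Hoxb9 were under that level. Slc5a8, a sodium-coupled transporter of lactate and short-chain fatty acids, had 6.17, 4.30 and 4.85 CPM in the duodenum and 150, 170 and 142 CPM in the ileum, a difference of 4.90 (SE 1.06). Tmigd1, an adhesion protein of epithelial cells, had 16.3 to 26.6 CPM against 421 to 529 CPM, and Mgat4c, a glycosyltransferase, had 1.78 to 4.08 CPM against 82.6 to 102 CPM. Fam151a, Map3k6 and Mroh7 differed by 6.66 (SE 0.94), 4.56 (SE 0.67) and 4.41 (SE 0.36). All of these groups were free of overlap and the calls held with any single sample left out.

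The other pair of that set was uneven within the ileum. Plb1, a brush border phospholipase, had 12.9 CPM in ileum number 1 and 175 and 134 CPM in numbers 2 and 3, against 0.219, 1.04 and 0.594 CPM in the duodenum (difference 7.56, SE 1.35). Meltf, a membrane-bound transferrin relative, ran the other way, with 513 CPM in ileum number 1 and 138 and 221 CPM in numbers 2 and 3. In the duodenum, number 1 was again the high sample for Meltf, at 30.01 CPM against 1.31 and 2.85 CPM. Its difference was 4.65 (SE 0.94), and sample number 1 was thus set apart from numbers 2 and 3 in both regions for this gene. Number 1 was also the only female sample of each region, so sample number and sex cannot be told apart here.

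Genes that pattern the gut along its length differed with the region. Of 15 listed regulators tested, 3 were called higher in the duodenum and 3 higher in the ileum. Pdx1, the homeobox factor of the proximal duodenum and pancreas, had 18.8, 17.5 and 9.88 CPM in the duodenum and 0.115, 0.0911 and 0.147 CPM in the ileum, a difference of -7.00 (SE 1.05, adjusted p = 0.000751). Onecut2 had 170, 184 and 172 CPM against 5.13, 8.33 and 7.49 CPM, a difference of -4.65 (SE 0.55), and was among the 10 genes furthest on the duodenal side at a mean log2 CPM of 1 or more, a level that Pdx1 did not reach. Gata4, which maintains jejunal and duodenal identity, was lower in the ileum by a smaller step, with 124, 114 and 116 CPM against 50.8, 53.1 and 45.0 CPM (difference -1.25, SE 0.38, adjusted p = 0.0359). That call was lost with any of the 6 samples left out, with an adjusted p from 0.0692 (without ileum number 1) to 0.12 (without ileum number 3).

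On the ileal side, Gata5 had 35.3, 37.9 and 40.5 CPM in the duodenum and 58.9, 80.5 and 77.3 CPM in the ileum, a difference of 0.93 (SE 0.15, adjusted p = 0.000713). Osr2, a zinc finger factor, had 28.8, 20.7 and 25.8 CPM against 76.1, 94.3 and 81.6 CPM, a difference of 1.74 (SE 0.31). Cdx2, the caudal homeobox factor of the whole intestine, was not called, with 113, 95.8 and 104 CPM against 129, 134 and 112 CPM.

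Hox genes, which give position along the body axis, were measured at low levels. Of 39 listed, 22 passed the filter on low counts, and 9 of these were called, all higher in the ileum, with a median difference of 1.48 over the 22. Those 9 were Hoxb5 to Hoxb9, Hoxc4, Hoxc6, Hoxc8 and Hoxd8. Hoxb8 had counts of 3, 1 and 0 in the duodenum and 43, 46 and 29 in the ileum, a ratio of 55.7 with an exact 95% interval of 21.2 to 208. For Hoxb9 the counts were 5, 0 and 6 against 94, 177 and 79, a ratio of 60.1 with an interval of 33.2 to 122. Hoxa9 leaned to the duodenum without being called, at 0.438, 0.571 and 0.471 CPM against 0, 0.0911 and 0.0979 CPM (difference -2.96, SE 1.03, adjusted p = 0.0564). The count of Hox genes called higher in the ileum was 6 without duodenum number 1, duodenum number 2 or ileum number 2, and 11 without ileum number 1.

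**Figure D2:**
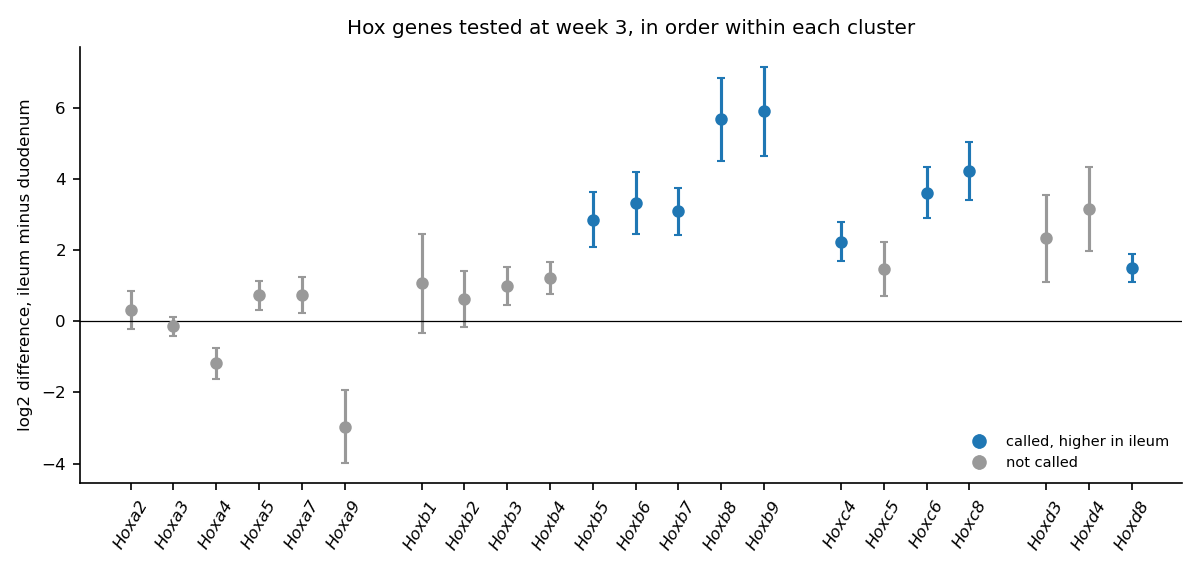
The log2 difference, ileum minus duodenum, of the 22 Hox genes tested at week 3 is on the y axis, with genes in order within clusters a to d along the x axis; bars are the standard error. The 9 called genes (blue) lie between 1.5 for Hoxd8 and 5.89 for Hoxb9, in clusters b, c and d.

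The Hox differences came with higher markers of the gut wall in the ileum. Of 7 fibroblast markers tested, 6 were called higher in the ileum and none in the duodenum, with a median of 2.09; their summed level was 24.0 to 28.8 CPM in the duodenum and 89.3 to 129.9 CPM in the ileum. Col1a1, a collagen chain, had 5.16, 5.51 and 5.70 CPM against 23.6, 33.4 and 20.9 CPM. Smooth muscle had 5 of 10 markers called, all higher in the ileum, with a summed level of 167 to 223 CPM against 247 to 291 CPM, and Msln of the outer mesothelial layer differed by 2.49 (SE 0.54). Their part in the Hox values was not tested. The smooth muscle count was 1 without any single duodenum sample, 2 without ileum number 1 or 2 and 3 without ileum number 3, and fibroblast calls numbered 4 or 5 with a sample left out. With all 48 samples in the fit both counts were 0 (Col1a1 adjusted p = 0.142, Msln 0.0547).

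Turning to the duodenal side, the 10 genes furthest from the ileum by the same rule included digestive and transport genes. Tmprss15, the enteropeptidase that activates trypsinogen, had 138, 153 and 77.4 CPM in the duodenum and 0.0383, 0.455 and 0.294 CPM in the ileum, a difference of -8.92 (SE 1.33, adjusted p = 0.00102). Akp3, an intestinal alkaline phosphatase known from the duodenum, had 1256, 1004 and 324 CPM against 7.46, 9.84 and 6.56 CPM (difference -6.76, SE 1.39). Reg1, a secreted lectin, had 243, 439 and 188 CPM against 0.995, 3.01 and 1.47 CPM (difference -7.32, SE 0.84). The regions did not overlap for any of these, and duodenum number 3 was the lowest duodenal sample for each.

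Duodenum number 3 was also the lowest duodenal sample for 5 more genes of that set, Slc37a2, Otop3, Car2, Sult6b2 and Trpv6. Slc37a2, a sugar phosphate exchanger, had 125, 96.6 and 35.0 CPM against 0.421 to 1.18 CPM, Otop3, a proton channel, had 14.6, 16.5 and 7.08 CPM against 0.191 to 0.546 CPM, and Car2, a carbonic anhydrase, had 22, 21.6 and 12.2 CPM against 1.15 to 1.22 CPM. Sult6b2, a sulfotransferase, differed by -7.00 (SE 1.00). For Lypd8l the lowest duodenal value was in number 1, as for Onecut2 above (67.9, 127 and 115 CPM against 4.78 to 6.85 CPM, difference -4.10, SE 0.34).

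Pancreatic and gastric transcripts moved with the duodenal pieces. Of 14 acinar cell markers tested, 10 were called higher in the duodenum, with a summed level of 32.9 to 51.2 CPM against 10.8 to 15.8 CPM, and Try4, Try5, Cpa1 and Cela2a were at 0 in every ileum sample. Of 3 stomach markers tested, 2 were called, with a summed level of 2.85 to 4.33 CPM in the duodenum and 0.228 to 0.689 CPM in the ileum. Their part in the values of Reg1 and Pdx1, which the pancreas also expresses, was not tested. The acinar count was 3 without ileum number 3, 4 without duodenum number 3 and 5 without duodenum number 2, ileum number 1 or ileum number 2, and the stomach count was 1 without any sample other than ileum number 1. With all 48 samples in the fit the acinar count was 1 and the stomach count 0.

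Iron absorption lay with the duodenum. Of 10 genes tested, 5 were called, all higher in the duodenum, against 8.3% of all genes, and the same count of 5 was found with each of the 6 samples left out in turn; the list's median was -1.02. Cybrd1, the brush border ferric reductase, had 75.5, 113 and 26.0 CPM in the duodenum and 4.71, 6.51 and 8.07 CPM in the ileum, a difference of -3.48 (SE 0.63, adjusted p = 0.00309). That difference was not kept at week 4. It moved towards the ileum by 4.52 from week 3 to week 4, a call lost in 8 of 12 fits that left out a sample. Slc11a2, the importer of ferrous iron, had 345, 108 and 72.5 CPM against 48.9, 40.1 and 41.4 CPM, with duodenum number 1 well above numbers 2 and 3. Slc40a1, the iron exporter ferroportin, differed by -3.38 (SE 0.68), with 450, 308 and 158 CPM against 52.1, 21.1 and 14.7 CPM. Slc46a1, first described as a haem carrier and known as the proton-coupled folate transporter, and Fth1, the ferritin heavy chain, differed by -2.11 (SE 0.36) and -1.49 (SE 0.26). Heph, the ferroxidase that works with ferroportin, was not called, with 284 to 398 CPM in the duodenum and 403 to 450 CPM in the ileum.

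Calcium uptake showed its entry channel on the same side. Trpv6 had 17.2, 21.7 and 6.96 CPM in the duodenum and 0.306, 0.319 and 0.294 CPM in the ileum, a difference of -5.62 (SE 1.24, adjusted p = 0.0092). S100g, the calcium carrier calbindin-D9k, had 580, 671 and 232 CPM against 57.9, 136 and 75.9 CPM without being called (difference -2.46, SE 0.97, adjusted p = 0.0974). Of 9 calcium and vitamin D genes tested, 2 were called, beside 17.1% of all genes. Both were higher in the duodenum, where 8.3% of all genes were called. The count was 1 without duodenum number 2 or ileum number 1.

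**Figure D3:**
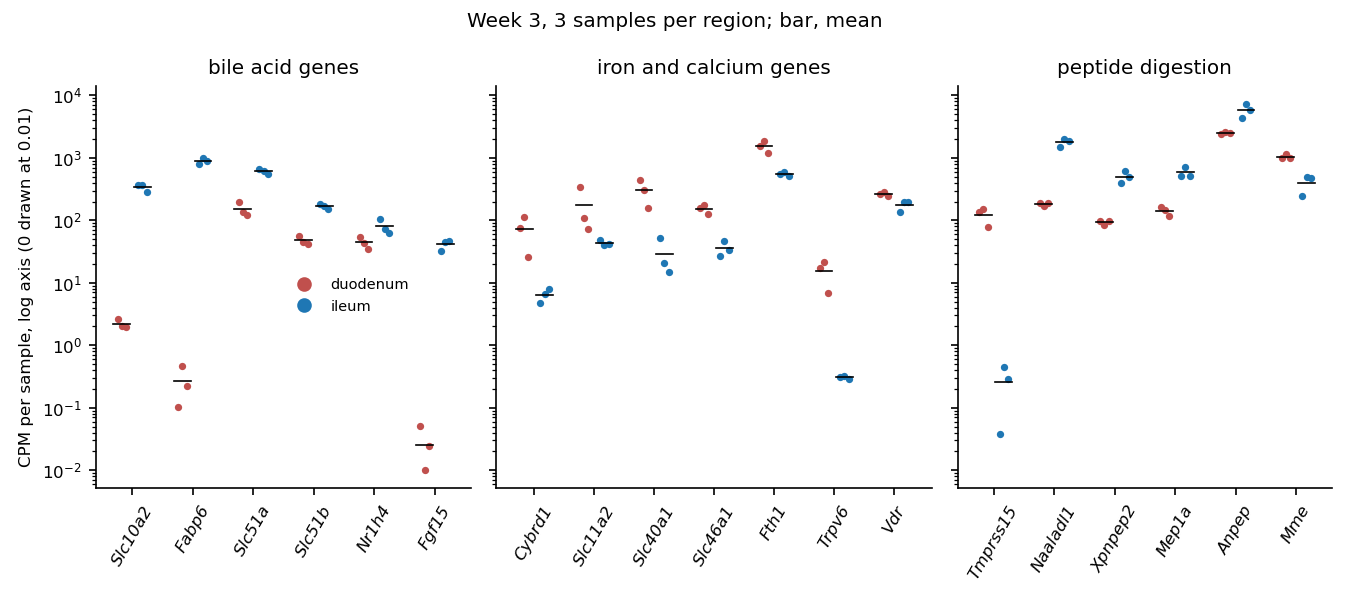
Points are the CPM of single samples at week 3 on a log axis (0 drawn at 0.01), with duodenum in red and ileum in blue, and black bars are means of 3. Bile acid genes stand higher in the ileum (Fabp6 at 790 to 987 CPM), the iron genes, Trpv6 and the vitamin D receptor gene Vdr in the duodenum, and peptide digestion is split, with Tmprss15 and Mme in the duodenum and Naaladl1, Xpnpep2, Mep1a and Anpep in the ileum.

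Peptide digestion was divided between the regions. Of 21 peptidase and amino acid transport genes tested, 10 were called on the ileal side and 2, Tmprss15 and Mme, on the duodenal side, with a median of 0.84. Naaladl1, a brush border dipeptidyl peptidase, had 187, 170 and 193 CPM in the duodenum and 1484, 1989 and 1845 CPM in the ileum, a difference of 3.28 (SE 0.46, adjusted p = 0.000365). Xpnpep2, an aminopeptidase for peptides with proline, differed by 2.43 (SE 0.45), and Mep1a, a meprin subunit, by 2.03 (SE 0.32). Anpep, aminopeptidase N, was abundant in both, at 2377, 2644 and 2512 CPM against 4419, 7214 and 5819 CPM. The glutamate transporter Slc1a1 differed by 1.19 (SE 0.24). Mme, the endopeptidase neprilysin, had 1007, 1142 and 980 CPM against 243, 487 and 474 CPM (difference -1.38, SE 0.39, adjusted p = 0.025), but its call was lost without any single sample other than ileum number 2, with an adjusted p of up to 0.0727 (without ileum number 1). The ileal count of 10 was 6 without duodenum number 3.

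Some enterocyte markers leaned the same way. Their list includes Anpep, given above among the peptidases, so its summed level is not separate from that result. Of 8 tested, 3 were called higher in the ileum and none in the duodenum, and their summed level was 12860 to 15400 CPM in the duodenum and 17550 to 26250 CPM in the ileum. This count was 1 without any single sample other than ileum number 1, and 4 without ileum number 1. The part of enterocyte content in the peptidase values was not tested.

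No regional difference was called for the main disaccharidases of the brush border. Sis, sucrase-isomaltase, had 3595, 3318 and 2885 CPM in the duodenum and 4150, 4338 and 4353 CPM in the ileum, and was not called (difference 0.39, SE 0.28, adjusted p = 0.353). Lct, lactase, had 1453 to 1645 CPM against 1178 to 1585 CPM and overlapped between the regions (difference -0.09, SE 0.64, adjusted p = 0.935). Of 14 genes of sugar digestion and handling, 3 were called, beside 17.1% of all genes. All 3 were higher in the duodenum, where 8.3% of all genes were called. The count was 2 without duodenum number 2, ileum number 1 or ileum number 3. G6pc, the glucose-6-phosphatase of gluconeogenesis, had 26.6, 37.2 and 37.6 CPM against 3.75, 7.79 and 10.9 CPM (difference -2.19, SE 0.34), and Fbp1, fructose-1,6-bisphosphatase, differed by -1.92 (SE 0.30).

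Fat handling was mixed. Of 23 genes tested, 4 were called, a share near the 17.1% of all genes called. All 4 were higher in the duodenum, where 8.3% of all genes were called, and the list's median was 0.17; the count was 1 without ileum number 3 and 2 without any single duodenum sample, and without ileum number 1 a further 2 genes were called higher in the ileum. Cd36, a fatty acid receptor, had 154, 212 and 126 CPM in the duodenum and 14.4, 22.3 and 10.9 CPM in the ileum (difference -3.37, SE 0.64, adjusted p = 0.00421). Apoa4, among the most abundant transcripts here, had 9628 to 13706 CPM against 4517 to 7073 CPM without overlap, yet was not called (difference -1.13, SE 0.49, adjusted p = 0.122). Fabp1, a fatty acid binding protein, behaved similarly (difference -1.71, SE 0.64, adjusted p = 0.0808), whereas Fabp2 overlapped between the regions, with 4280 CPM in ileum number 1 beside 8533 and 8509 CPM in numbers 2 and 3, and was called higher in the ileum without ileum number 1 (adjusted p = 0.0245).

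Fatty acid oxidation was more one-sided. Of 19 genes tested, 10 were called, all higher in the duodenum, with a median of -0.60; the count was 6 without ileum number 3. Cyp4a10, a fatty acid omega-hydroxylase induced through PPARα, had 9.12, 9.23 and 6.34 CPM in the duodenum and 0.0765, 0.410 and 0.0979 CPM in the ileum. Pdk4, which restrains glucose oxidation, and Acaa2, a thiolase, differed by -2.28 (SE 0.36) and -1.35 (SE 0.25).

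Genes of cholesterol synthesis and uptake, taken as 1 list, went in the opposite direction. Of 24 tested, 10 were called, all higher in the ileum, and the median was 0.61. The count was 2 without duodenum number 2, 3 without duodenum number 3 or ileum number 2 and 6 without ileum number 1. With all 48 samples in the fit it was 7.

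Among enzymes that process foreign compounds, more were called higher in the duodenum than in the ileum. Of 19 phase 1 genes tested, 9 were called higher in the duodenum and 1, Cyp4f40, higher in the ileum; among 20 conjugation and export genes the numbers were 8 and 4. Cyp3a11, a broad drug-metabolising cytochrome P450, had 1973, 2702 and 1090 CPM against 110, 248 and 106 CPM (difference -3.64, SE 0.64, adjusted p = 0.00225). Cyp2c29 and Cyp2c66 differed by -3.91 (SE 0.52) and -3.59 (SE 0.50), Cyp3a25 by -2.34 (SE 0.24), and the glutathione transferases Gstm1 and Gstm4 by -2.04 (SE 0.29) and -1.60 (SE 0.23). Abcb1a, the efflux pump P-glycoprotein, was the largest call in the other direction, at 376, 279 and 252 CPM against 1171, 919 and 833 CPM (difference 1.69, SE 0.24). Cytochrome P450 and glutathione transferase genes have close relatives, and estimated counts divide shared reads by a model. Without ileum number 3 the phase 1 count was 6 and the duodenal conjugation count 2; the latter was 4 without duodenum number 1 and 3 without duodenum number 2. Cyp4f40 was not called without duodenum number 1 or ileum number 3. The 4 conjugation and export genes on the ileal side fell to 1 without duodenum number 3 or ileum number 2. With all 48 samples in the fit the conjugation and export numbers were 5 and 2.

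**Figure D4:**
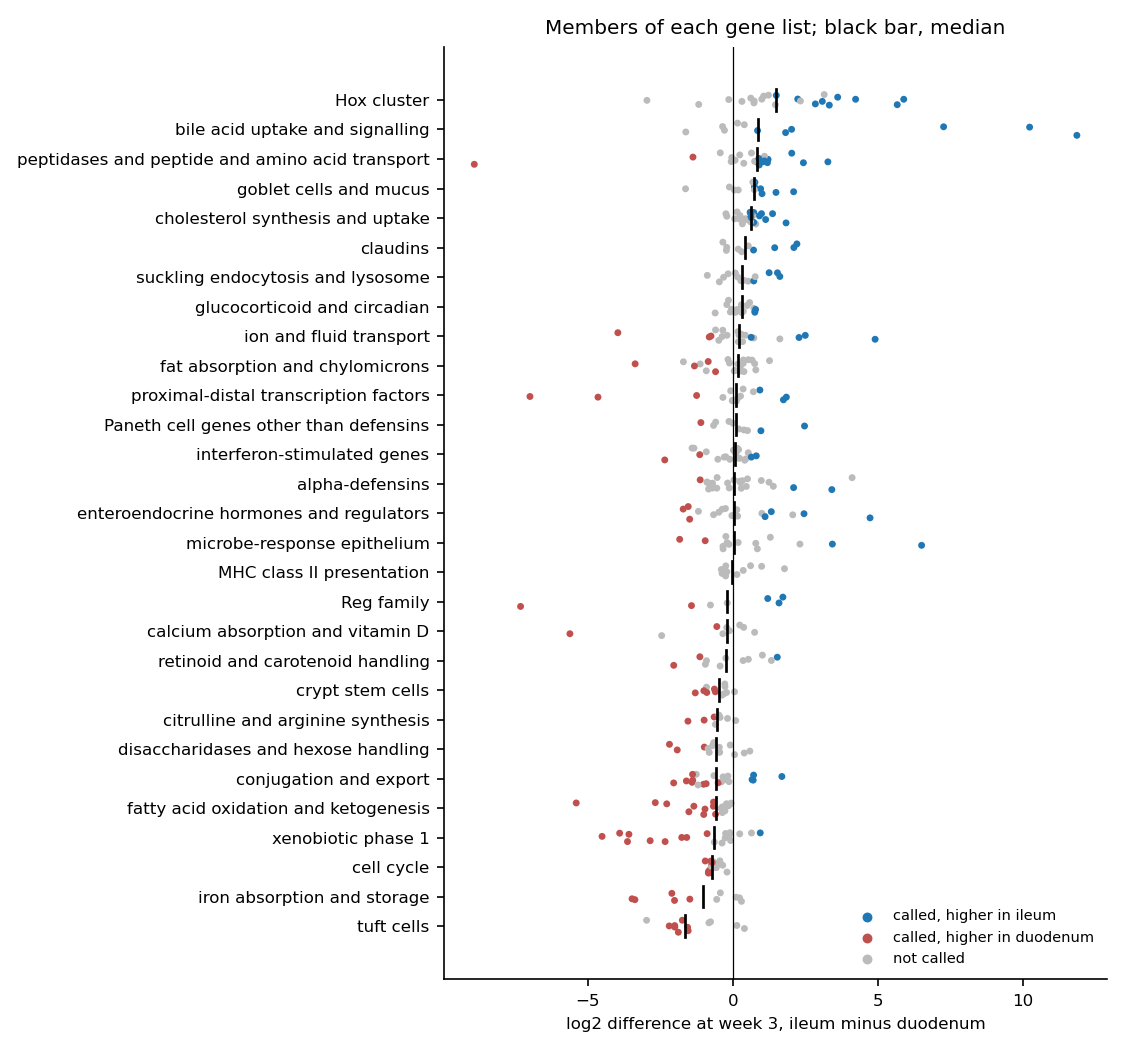
Each point is a gene of the named list, placed by its log2 difference at week 3 (x axis, ileum minus duodenum), and black bars are list medians, which run from -1.65 for tuft cell genes to 1.48 for Hox genes. Blue and red points are called genes and grey points are not; most lists hold points on both sides of 0, and the peptidase list spans Tmprss15 at -8.92 to Naaladl1 at 3.28.

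Some genes for the uptake of milk proteins and cobalamin were higher in the ileum at week 3. Of 14 genes of suckling endocytosis and lysosomes tested, 4 were called, all higher in the ileum, with a median of 0.33; the count was 3 or 4 with a sample left out, and 2 genes were called higher in the duodenum without ileum number 1. Of all genes tested, 8.82% were called in that direction, and with all 48 samples in the fit the list's count was 2. Cubn, the cobalamin and protein receptor cubilin, had 847, 685 and 681 CPM in the duodenum and 1638, 1738 and 1883 CPM in the ileum (difference 1.25, SE 0.29, adjusted p = 0.00792; 0.117 with all 48 samples). Amn, amnionless, the protein that anchors cubilin in the membrane, had 29.7 to 35.3 CPM against 74.6 to 112 CPM. Neu1, a lysosomal sialidase, differed by 1.62 (SE 0.31).

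Of 8 genes listed for citrulline and arginine, 3 were called, all higher in the duodenum, where 8.3% of all genes were called. The count was 1 without duodenum number 2 or ileum number 3. Cps1, carbamoyl phosphate synthetase, had 1435, 1393 and 1588 CPM against 921, 694 and 604 CPM (difference -0.99, SE 0.22). Arg2, arginase 2, is a gene switched on at weaning, not one of the suckling programme. It had 328, 454 and 319 CPM against 68.7, 174 and 134 CPM (difference -1.55, SE 0.44, adjusted p = 0.0261). The Arg2 call was lost without duodenum number 2, ileum number 1 or ileum number 3, with an adjusted p of up to 0.0836.

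Goblet cell genes were higher in the ileum. Of 12 tested, 6 were called, none in the duodenum, with a median of 0.74; the count was 3 without ileum number 2 or 3. Muc2, the main secreted mucin, had 446, 247 and 377 CPM in the duodenum and 1548, 1058 and 1963 CPM in the ileum, a difference of 2.09 (SE 0.34, adjusted p = 0.000751). Clca1, a secreted protease of mucus, had 311 to 425 CPM against 968 to 1096 CPM. Guca2a, guanylin, which goblet cells and enterocytes release to regulate salt and water, differed by 2.50 (SE 0.21, adjusted p = 6.14e-06).

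Paneth cell genes did not move as a group. Lyz1, lysozyme, had 452, 653 and 459 CPM against 304, 477 and 254 CPM and was not called, and 3 of the other 9 Paneth genes tested were called. Mptx2, a pentraxin, was higher in the ileum (0.302 to 0.669 CPM against 2.45 to 3.32 CPM), as was Nupr1. Clps was higher in the duodenum except without ileum number 3. The part of the pancreatic transcripts described above in the Clps value was not tested. Of 25 alpha-defensin genes, 2 were called higher in the ileum, Defa32 (9.23 to 17.4 CPM against 110 to 185 CPM) and Defa33 (29.8 to 46.8 CPM against 115 to 206 CPM), and 1, Defa23, in the duodenum. Neither count was above the share of all genes called, 8.82% for the ileum and 8.3% for the duodenum. The alpha-defensin genes are near-identical copies, so the division of reads among them is uncertain. Their duodenal count was 5 without ileum number 2 and 0 without any other sample. Reg3b and Reg3g, lectins that act against bacteria, were higher in the ileum by 1.59 (SE 0.45, adjusted p = 0.0257) and 1.72 (SE 0.48, adjusted p = 0.0234). Both calls were fragile: Reg3b was lost without duodenum number 1 or 3 or ileum number 2 or 3, with an adjusted p of up to 0.0983, and Reg3g without any sample other than ileum number 1, with an adjusted p of up to 0.0804.

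Gut hormones were called in both directions. Of 18 enteroendocrine genes tested, 4 called genes favoured the ileum and 3 the duodenum; with all 48 samples in the fit the numbers were 4 and 0. Pyy, peptide YY, had 0.371, 0.134 and 0.446 CPM in the duodenum and 7.77, 9.06 and 9.79 CPM in the ileum, a difference of 4.73 (SE 0.57, adjusted p = 0.000116). Nts, neurotensin, had 9.73, 14.7 and 14.8 CPM against 63.0, 68.2 and 83.0 CPM, and Gcg, which encodes the glucagon-like peptides, differed by 1.32 (SE 0.25). In the other direction Cck, cholecystokinin, had 8.18, 9.17 and 9.46 CPM against 2.33, 3.28 and 3.62 CPM, and Ghrl, ghrelin, differed by -1.71 (SE 0.31). Neurog3, the factor that starts endocrine differentiation, was higher in the duodenum as well, at 4.62, 3.16 and 3.81 CPM against 1.57, 1.27 and 1.27 CPM. Those 3 duodenal genes had adjusted p values of 0.0591 (Cck), 0.0508 (Ghrl) and 0.0735 (Neurog3) in the fit of all 48 samples.

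Tuft cell genes were lower in the ileum. Of 12 tested, 7 were called, all higher in the duodenum, with a median of -1.65 and a count of 5 to 7 with a sample left out and 4 with all 48 samples in the fit. Trpm5, the cation channel of chemosensory signalling, had 4.43, 4.80 and 5.32 CPM in the duodenum and 1.11, 1.05 and 1.47 CPM in the ileum (difference -2.01, SE 0.35). Pou2f3, the factor tuft cells require, and Alox5, a leukotriene enzyme, differed by -1.56 (SE 0.34) and -2.20 (SE 0.45).

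Crypt genes pointed to the duodenum with less certainty. Of 12 stem cell genes tested, 5 were called higher in the duodenum, and of 20 cell cycle genes 10, with medians of -0.49 and -0.72. Olfm4, a stem cell marker, had 1157, 1606 and 1853 CPM against 689, 729 and 459 CPM (difference -1.30, SE 0.24), and Cdca7, Smoc2 and Ccnb2 differed by -1.0 (SE 0.20), -0.90 (SE 0.21) and -0.95 (SE 0.20). Lgr5, the receptor that defines these cells, was not called, at 31.3, 43.0 and 38.2 CPM against 33.3, 28.0 and 25.1 CPM. The cell cycle count was 5 without duodenum number 1 or 2, 1 without ileum number 3, 2 without ileum number 2, 3 without duodenum number 3 and 17 without ileum number 1, and both counts were 0 when all 48 samples shared the estimate of spread; the stem cell count was 3 without ileum number 3 or duodenum number 3.

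Epithelial defence was split. Pigr, which carries IgA across the epithelium, had 1984, 2343 and 2101 CPM in the duodenum and 554, 792 and 455 CPM in the ileum, a difference of -1.84 (SE 0.21, adjusted p = 5.07e-05). Nos2, inducible nitric oxide synthase, had counts of 6, 0 and 3 in the duodenum and 68, 197 and 170 in the ileum, a ratio of 91.3 with an exact 95% interval of 47.7 to 201. Duox2, a dual oxidase, had 1.03, 0.470 and 0.842 CPM against 8.84, 7.47 and 10.1 CPM. Both oxidant genes were called (adjusted p = 0.0238 and 0.0279), and both calls were lost without any sample other than ileum number 1, with an adjusted p of up to 0.0753 for Nos2 and 0.0863 for Duox2.

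Among immune cell markers, Gzma and Gzmb, granzymes of cytotoxic lymphocytes, were called higher in the duodenum (differences -3.37, SE 0.56, and -3.73, SE 0.52), with 3.62, 12.9 and 5.89 CPM of Gzma against 0.306, 1.18 and 0.685 CPM. The other 9 of 11 T cell markers were not called, while 17.1% of all genes were. The summed T cell level, which includes both granzymes, was 12.8 to 33.6 CPM in the duodenum and 5.36 to 11.1 CPM in the ileum. Of the 11 markers, 2 had every duodenum sample above every ileum sample, as did 17.7% of all genes. Of 10 B cell and follicle markers, 2 were called higher in the ileum, where 8.82% of all genes were called. The summed level of the 10 was 4.32 to 5.04 CPM in the duodenum and 6.58 to 18.7 CPM in the ileum. The count was 0 without any single duodenum sample or ileum number 3, and 1 without ileum number 2. It was 0 with all 48 samples in the fit. Spib, which M cells, B cells and others share, was higher in the duodenum (difference -1.57, SE 0.39, adjusted p = 0.0122; 0.0824 with all 48 samples).

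The change in the regional difference between week 2 and week 3 was called for 234 genes (1.21%), 132 (0.684%) with a shift towards the ileum and 102 (0.529%) with a shift towards the duodenum. This tests the interaction of region and age, and week 3 samples enter it as well as the comparison above. The count was 98 to 146 without any 1 of 8 samples, namely number 2 or 3 and number 1 of the ileum at week 2, number 3 of the duodenum at week 2, any duodenum sample of week 3 and ileum number 2 of week 3. By Xist and Ddx3y, numbers 1 and 2 of both regions were female at week 2 and number 3 was male. At week 3 just number 1 was female, so the mix of sexes changed with age, and its part was not tested. Slc10a2 was low in the ileum at week 2, with 0.895, 1.64 and 1.02 CPM, and its difference moved by 6.34 (SE 1.03, adjusted p = 0.0084), although without duodenum week 2 number 3 the adjusted p was 0.0707. Slc51b had 33.2, 35.3 and 44.1 CPM in the ileum at week 2, like the duodenum at 51.8, 35.2 and 35.4 CPM, and its difference moved by 1.94 (SE 0.26, adjusted p = 0.000814). In Fgf15 the ileum went from 233, 315 and 258 CPM at week 2 to the lower values at week 3 given above, and the duodenum from 9.03, 28.9 and 14.1 CPM to nearly none; the change of 6.28 (SE 1.40, adjusted p = 0.0471) was lost in 11 of the 12 fits that left out a sample.

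Several enterocyte genes that stood far lower in the ileum at week 2 were nearer the duodenal level at week 3. Sis had 147, 108 and 117 CPM in the duodenum and 15.8, 20.4 and 21.9 CPM in the ileum at week 2, and its regional difference moved by 3.07 (SE 0.41, adjusted p = 0.000814) to the near-equal levels at week 3. Mme went from 12.0, 6.10 and 9.25 CPM to 243, 487 and 474 CPM in the ileum (change of the difference 3.97, SE 0.57), and Fabp2 changed by 2.58 (SE 0.40). Arg2 had 0.409, 0.119 and 0.372 CPM in the ileum at week 2, beside 18.7, 10.9 and 14.5 CPM in the duodenum, and its difference moved by 4.12 (SE 0.75, adjusted p = 0.0138; 0.0576 without ileum week 2 number 2).

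The 5 smallest p in this test belonged to Ctsh, Creg1, Gpt, Gpcpd1 and AA467197, each with an adjusted p of 0.000667. Ctsh, a lysosomal cathepsin, had 182, 186 and 218 CPM in the ileum at week 2 and 19.5, 19.3 and 14.9 CPM at week 3, so that the region with more of it changed from ileum to duodenum (84.0 to 92.4 CPM at week 2 and 25.9 to 38.2 CPM at week 3). Creg1, a secreted lysosomal glycoprotein, went in the ileum from 104, 118 and 125 CPM to 22.1, 15.8 and 17.9 CPM while the duodenum had 23.4 to 29.6 CPM and then 16.2 to 18.3 CPM. Gpt, alanine aminotransferase, took the opposite course, with 17.7, 11.8 and 17.2 CPM in the ileum at week 2 and 174, 244 and 191 CPM at week 3. Sult6b2 changed sides, from 2.33 to 4.27 CPM in the duodenum and 21.8 to 36 CPM in the ileum at week 2 to 97.3 to 203 CPM and 0.587 to 1.73 CPM at week 3 (change -10.25, SE 1.29).

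**Figure D5:**
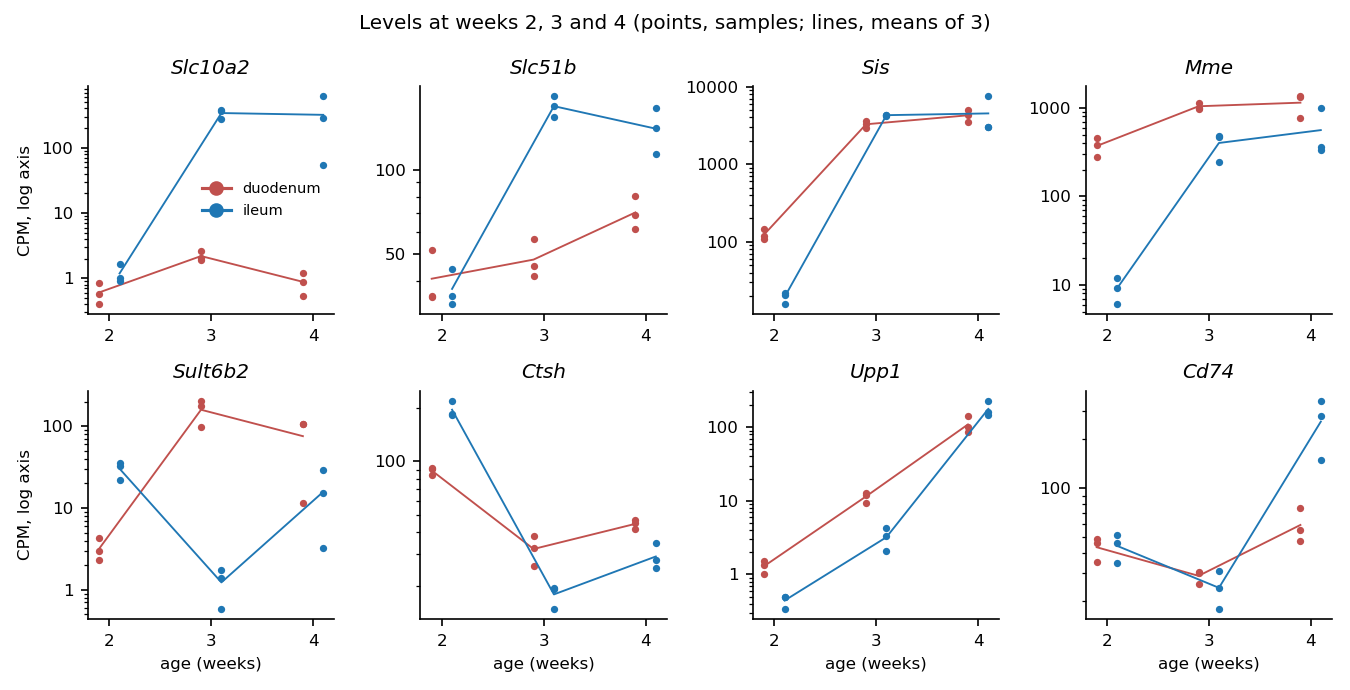
CPM on a log axis against age in weeks for 8 genes, with single samples as points and means of 3 as lines, duodenum in red and ileum in blue. Slc10a2 and Slc51b part between week 2 and week 3, Sis and Mme draw together, Sult6b2 changes sides, and Cd74 and Upp1 shift towards the ileum between week 3 and week 4.

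From week 3 to week 4 the regional difference changed for 140 genes (0.726%), 61 (0.316%) towards the ileum and 79 (0.41%) towards the duodenum. This count was 1080 without ileum week 4 number 1 and 18 when just the 4 groups compared were fitted. It was 28 to 81 without duodenum week 3 number 1, 2 or 3, 52 without ileum week 3 number 2, 84 and 32 without duodenum week 4 number 2 and 3, and 74 without ileum week 4 number 3. At week 4 all 6 samples had Xist at the female level, and mitochondrial transcripts made up 22.1% to 35.2% of the ileum counts, so sex and this share moved with age; their part was not tested.

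Of 10 genes of MHC class II presentation, 4 were called in this test, all towards the ileum. Cd74, the invariant chain, had 25.7, 30.5 and 30.1 CPM in the duodenum and 18, 30.7 and 24.1 CPM in the ileum at week 3, and 47.1, 75.4 and 55.4 CPM against 149, 345 and 280 CPM at week 4 (change 2.37, SE 0.38, adjusted p = 0.0102). H2-Aa changed by 2.53 (SE 0.39). For both genes the regions overlapped at week 3 and not at week 4. In the interferon list 5 of 20 genes were called, all towards the duodenum, among them Oasl1, an interferon-induced antiviral gene, with 22.6 to 27.1 CPM against 37.2 to 47.5 CPM at week 3 and 120 to 163 CPM against 50.6 to 62.5 CPM at week 4.

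The 5 smallest p from week 3 to week 4 were those of Cmpk2, Mroh7, Cd38, Upp1 and Oasl1. Cmpk2, an interferon-induced mitochondrial nucleotide kinase, overlapped between the regions at week 2 (26.5 to 40.4 CPM in the duodenum, 25.4 to 29.7 CPM in the ileum). It was higher in the ileum at week 3, with 64.9, 86.2 and 71.5 CPM against 25.5 to 32.9 CPM, and at week 4 had 51.0, 39.4 and 68.9 CPM against 83.1 to 122 CPM. Upp1, uridine phosphorylase, had 2.07, 3.28 and 4.26 CPM in the ileum and 9.44, 13.0 and 12.0 CPM in the duodenum at week 3, and 160, 226 and 146 CPM against 84.8, 140 and 102 CPM at week 4 (change 2.55, SE 0.34, adjusted p = 0.00286). Cd38, an enzyme of NAD breakdown found on immune and epithelial cells, changed by 1.62 (SE 0.21), from 37.7 to 47.3 CPM in the ileum at week 3 to 150 to 231 CPM at week 4.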

How the data were processed

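The authors deposited a table of estimated counts per gene for 48 samples (54532 gene identifiers, whole numbers); per the submitters' processing notes STAR 2.6.1d, Salmon 0.14.2, DESeq2 1.30.1 and build mm10 were used, with no roles given. The authors also deposited normalized values, a signal that equals the estimated count divided by 1 factor per sample; they served for gene names and a check.

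The 18 samples of week 2, 3 and 4 were fitted together with edgeR 4.0.16 in R 4.3.3 (TMM, filterByExpr over the 6 groups, robust quasi-likelihood), with 1 mean per region and age and Benjamini-Hochberg adjustment over 19285 genes. The fit was kept to week 3 and the ages on either side of weaning. An earlier account of these data, not checked here, put samples of day 6 on the wrong side of their region label. With all ages in the fit, any such mismatch would enter the estimate of spread. Its part in the counts of the larger fits was not tested. The 40 samples with a column in the authors' normalized tables lack day 4 and number 3 of day 6 in both regions. They keep numbers 1 and 2 of day 6. The SE is the log2 difference divided by the square root of F. The test was run on simulated data with a common spread for all genes and groups. Groups of unequal spread were not simulated. DESeq2 1.42.0, other scalings, filters, sample sets, a block and each sample left out were alternatives. The labels do not say whether samples came from separate animals or whether a shared number marks an animal. At week 3 each region held samples of both sexes, and so of more than 1 animal. Whether numbers 2 and 3 came from separate animals is not known. The p-values measure the spread between these samples, which may be technical in part.

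Named genes were members of 51 lists, plus the 10 with the largest difference in each direction among called genes whose mean log2 CPM was 1 or more, with no overlap between the regions, plus the 5 with the smallest p in each test of a changed difference. Members and lists were chosen with earlier results of these data known. Intervals of count ratios are exact and cover counting error only. Promoter sequences are from RefSeq (GRCm38.p6), and exons from GENCODE M21. Some list members are not reported here.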

Additional observations from a re-analysis of the deposited data

Results flagged for a closer look

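The regional difference was not the same at week 3 as at the ages beside it for 234 genes from week 2 to week 3 and 140 genes from week 3 to week 4, by edgeR's test of the interaction of region and age. The values below are log2 changes of the difference, ileum minus duodenum, for the genes named in the report that passed this test.

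From week 2 to week 3 the difference moved towards the ileum for Slc10a2 by 6.34, Fgf15 by 6.28, Arg2 by 4.12, Mme by 3.97, Sis by 3.07, Gpt by 2.93 and Fabp2 by 2.58. Mroh7 moved by 2.35, Slc51b by 1.94, Cmpk2 by 1.6 and the transcription factor Gata5 by 1.07. The difference moved towards the duodenum for Sult6b2 (-10.25), AA467197 (-2.34), Creg1 (-2.02), Ctsh (-1.98), Gstm4 (-1.97) and Gpcpd1 (-1.58). With a single sample left out, the call was lost in 11 of 12 fits for Fgf15, 5 for Mroh7, 2 for Gata5 and 1 each for Slc10a2 and Arg2.

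From week 3 to week 4 the difference moved towards the ileum for Cybrd1 by 4.52, Gzmb by 2.93, Upp1 by 2.55, H2-Aa by 2.53, Spib by 2.44, Lypd8l by 2.42 and Cd74 by 2.37. Cd38 moved by 1.62, AA467197 by 1.61, Pigr by 1.32 and Gpcpd1 by 1.03. It moved towards the duodenum for Mroh7 (-3.53), Cmpk2 (-2.39), Oasl1 (-2.12) and Abcb1a (-1.87). The call was lost in 10 of 12 such fits for Gzmb, 9 for Pigr and for Spib, 8 for Cybrd1, 4 for Gpcpd1, 3 for Lypd8l and 2 for Abcb1a. Gpcpd1, AA467197, Mroh7 and Cmpk2 passed in both intervals, each with opposite signs.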

How the results depend on the processing

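At week 3 the count of 3301 genes was 1376 with all 48 samples in the fit and 5585 with the 40 samples that have a column in the authors' normalized tables, the latter chosen after seeing the data; with single samples left out it ran from 1588 to 3531. The share of calls higher in the ileum was 51.5%, and 58.9% with all 48 samples, 33.4% with the 40, and 62.4% without ileum number 3. From week 2 to week 3 the count of 234 was 558 with DESeq2, 584 with only the groups compared, 113 with all 48 samples, 672 with the 40 and 98 to 263 with a sample left out. From week 3 to week 4 the count of 140 was 213 with no filter, 569 with DESeq2, 18 with only the groups compared, 61 with all 48, 550 with the 40 and 28 to 1080 with a sample left out. Same-numbered samples of the regions correlated at week 3 by -0.029 to 0.46 in their deviations, with a mean of 0.227. Differently numbered samples correlated by -0.468 to 0.252, with a mean of -0.115. Number 1 was female in both regions, and the part of sex in these correlations was not tested. The numbers were not taken as pairs because the labels do not say whether a shared number marks an animal. With the number as a replicate block the counts were 3485, 253 and 132. Of 112 named genes, 97 were called at week 3, 68 of them in all 17 alternatives and 87 with any of the 6 samples left out. With all 48 samples in the fit 21 of them lost their call. Uncalled differences changed sign for Lct (-0.203 to 0.034 with a sample left out), Creg1 (-0.003 without mitochondrial genes, -0.032 with the 40 samples, -0.055 to 0.165 with a sample left out) and Gpt (-0.068 to 0.225 with a sample left out). The causes were not tested. Genes with few counts in a region, such as Fgf15 and Hoxb8 in the duodenum, are limited by depth.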
